A study of Mus musculus with 6 samples.

Results

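The 10 genes Phlda3, Ephx1, Trp53inp1, Aen, Zmat3, Perp, Ei24, Tigar, Rrm2b and Inka2 are targets of the transcription factor p53 that act in signalling, RNA control, metabolism, detoxification and membranes rather than in cell cycle arrest or the BCL2 family. They were chosen by their known roles from p53 targets of this dataset with their cisplatin-against-control fold changes already known, so those fold changes are a description. No p-value is given for them, and whether a gene passed the threshold used for all genes is stated only as a label that supports nothing. All 10 were among the 19087 genes of the deposited table, and all 10 passed the filter on low counts that left 14392 genes. Kidney RNA was sequenced from 3 cisplatin-treated and 3 control mouse samples, all taken as wild-type. That genotype is in the headers of the cisplatin columns and was read from column initials for the controls. Cisplatin, an anticancer agent whose platinum adducts stall replication and injure the tubule, was given by intraperitoneal injection as a model of acute kidney injury. The sources used here do not give strain, age, sex, diet, dose or time after injection, nor any injection of the controls. The series asks what sensitises animals fed a high-fat diet to this injury. Libraries held 16725665 to 18523666 estimated counts, and the labels do not say that each sample came from its own animal, so the spread between samples may be partly technical.

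p53 is kept low by the ubiquitin ligase MDM2 and is stabilised by kinases of the DNA damage response, after which it binds response elements near its target genes and raises their transcription. The best known targets stop the cell cycle or open the mitochondrial path to apoptosis. Others restrain growth signalling, degrade or stabilise RNA, redirect sugar into the pentose phosphate pathway, supply deoxynucleotides for repair or clear reactive compounds. In the kidney, p53 is activated in proximal tubule cells that take up cisplatin.

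Upstream sequence was read for 6 of the 10 genes in RefSeq's promoter windows of build GRCm38.p6, which run from 250 bases before to 50 bases after an annotated start and gave 8 windows, since Aen and Inka2 have 2 starts each. The windows were searched on both strands for the p53 decamer consensus, a 10-base palindromic motif, and for a 20-base pair of adjoining decamers in which the C and G of each core were kept and at most 3 other letters were off. Of the 6 genes, Aen, Ei24 and Inka2 held a decamer and Aen and Tigar a decamer pair, and Aen's decamer is the first part of its pair. Windows of Phlda3 and Ephx1 held neither, which says only that these letters are absent from these windows. Among 18800 windows of 15075 genes of the deposited table, 7.36% held a decamer and 1.45% a pair, against 4 and 3 of the 8 windows here, and Aen's 2 windows overlap and share 1 site. Of 47 windows of other p53 targets listed by name, 13 held a decamer and 6 a pair. The motif search played no part in the choice of these genes. They were chosen as known p53 targets, however, so the shares of windows with a p53 motif are not independent of that choice. Median GC content was 64.3% in the 8 windows here and 58.0% in those of the deposited table, and its part in the shares was not tested. The 250 upstream bases with a match are shown 5′ to 3′ on the gene's strand, with the match in capitals.
Aen (chr7:78895808-78896057, plus strand, second start): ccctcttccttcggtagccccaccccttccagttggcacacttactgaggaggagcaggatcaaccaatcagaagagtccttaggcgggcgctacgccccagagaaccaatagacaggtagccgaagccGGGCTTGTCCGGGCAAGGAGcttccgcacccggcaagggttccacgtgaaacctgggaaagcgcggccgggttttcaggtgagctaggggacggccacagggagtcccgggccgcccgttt
Inka2 (chr3:105705208-105705457, plus strand, second start): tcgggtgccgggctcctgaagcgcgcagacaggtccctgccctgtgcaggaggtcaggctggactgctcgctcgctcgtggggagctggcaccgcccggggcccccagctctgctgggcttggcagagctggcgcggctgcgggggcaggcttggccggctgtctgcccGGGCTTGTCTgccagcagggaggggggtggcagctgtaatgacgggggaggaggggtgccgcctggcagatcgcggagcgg
Tigar (chr6:127109553-127109802, minus strand): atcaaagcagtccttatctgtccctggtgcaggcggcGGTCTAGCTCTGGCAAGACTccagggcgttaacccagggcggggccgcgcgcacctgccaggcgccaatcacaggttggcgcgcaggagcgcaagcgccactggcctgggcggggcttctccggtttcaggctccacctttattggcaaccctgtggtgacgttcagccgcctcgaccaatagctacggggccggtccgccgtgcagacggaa
Ei24 (chr9:36797335-36797584, minus strand): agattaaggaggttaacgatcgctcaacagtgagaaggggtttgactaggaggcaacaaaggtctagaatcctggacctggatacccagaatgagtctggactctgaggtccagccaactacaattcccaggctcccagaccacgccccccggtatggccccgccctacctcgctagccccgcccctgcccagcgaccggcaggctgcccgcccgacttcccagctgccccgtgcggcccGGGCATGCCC

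In these upstream stretches the Aen pair lay 121 to 102 bases before the second start, the Inka2 decamer 81 to 72 bases before the second start, the Tigar pair 213 to 194 bases and the Ei24 decamer 10 to 1 bases before their starts. The Aen sequence lies 11 to 30 bases inside the transcript that begins at the first start. A match is a description of letters and not a measured binding site.

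Transcripts of 9 of the 10 genes were more abundant in cisplatin kidneys and those of Rrm2b were less abundant. At a false discovery rate of 0.05 (edgeR, quasi-likelihood) all 10 were called, 9 higher and 1 lower, where 23.1% of the 14392 genes tested were called higher and 22.2% lower. The 3 cisplatin libraries lay above all 3 control libraries for 9 genes, as they did for 29.2% of all genes tested. For Rrm2b the 3 cisplatin libraries lay below all 3 control libraries, and the share of all genes with that order was not computed. Since the genes were chosen with this comparison known, nothing is read from these counts. The median log2 fold change, cisplatin over control, was 2.12 over the 10 genes and 0.01 over all genes tested. Rises were at least 2-fold for 7 genes and at least 4-fold for 5, beside 7.73% and 2.7% of all genes tested.

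**Figure D1:**
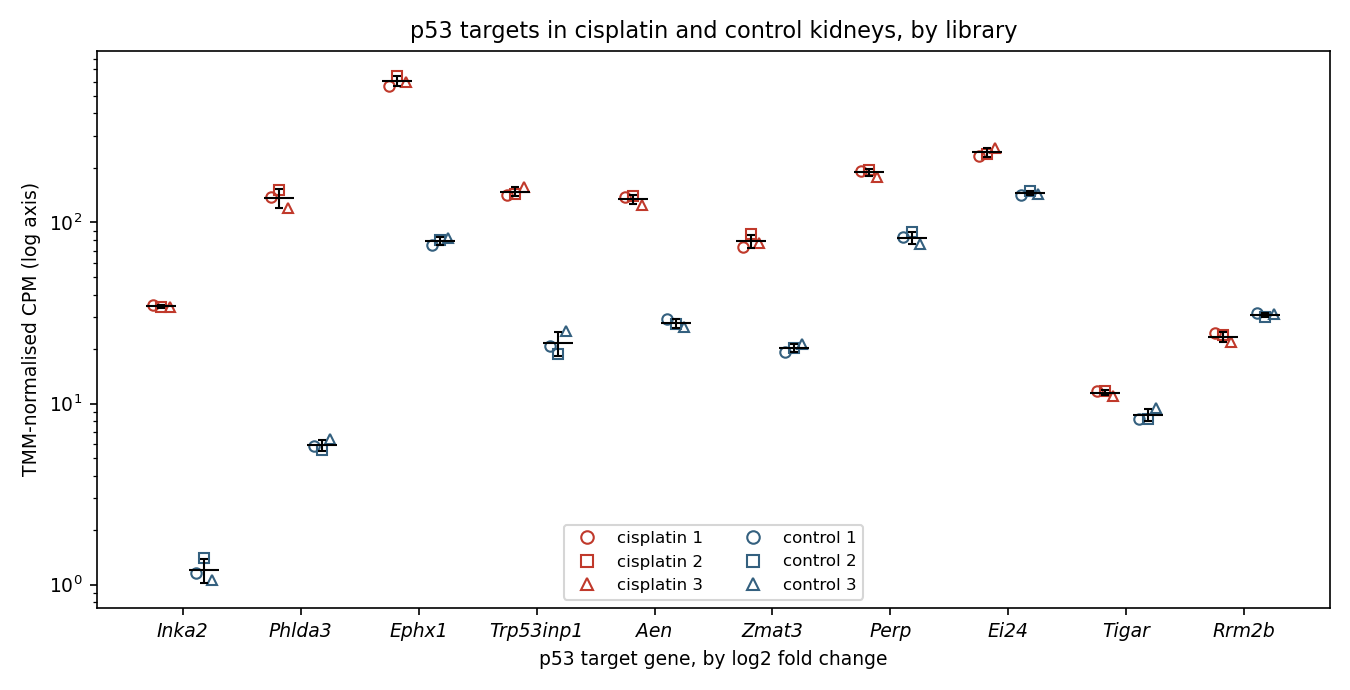
TMM-normalised CPM (log axis) of the 10 p53 target genes in each library, cisplatin left of control for each gene, with mean and SD (n = 3 each) as black bars and the genes in order of log2 fold change. Groups do not overlap for any of the 10 genes, which were chosen with this comparison known. Every cisplatin library was above every control library for 29.2% of all genes tested. Rrm2b is the gene that is lower in cisplatin, at 23.4 ± 1.47 CPM against 31.0 ± 0.879 CPM.

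Among the genes of signalling, Phlda3 encodes a pleckstrin homology domain protein that competes with AKT for membrane phosphoinositides and so restrains AKT (Entrez 27280, chromosome 1, 135766085 to 135769134, plus strand, GRCm38.p6). Its level, in CPM normalised with TMM factors, was 138.6, 152.0 and 120.2 in cisplatin replicates 1 to 3, against 5.80, 5.51 and 6.34 in control replicates 1 to 3. Even the lowest cisplatin library was far above the highest control. The log2 fold change was 4.54 (SE 0.12), or 23.3-fold, and 0.514% of genes tested had a larger one.

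Inka2 encodes an inhibitor of the kinase PAK4 (Entrez 109050, chromosome 3, 105704599 to 105720842, plus strand). It was close to silent in control kidneys, with 1.16, 1.41 and 1.06 CPM resting on 19.3, 23.0 and 17.4 estimated counts, and reached 35.2, 34.0 and 34.2 CPM in cisplatin kidneys. The coefficient of variation of the cisplatin libraries was 1.76%. Its log2 fold change of 4.83 (SE 0.12) was the highest of the 10, but it exceeded that of Phlda3 by only 0.29, with a combined SE of 0.17. With limma on log2(FPKM + 1) it was 2.81, since a pseudocount of 1 shrinks the change of a gene listed at 0.38 to 0.47 TPM in the controls.

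Trp53inp1 encodes a stress-induced nuclear and autophagosomal protein that assists p53 and its kinases (Entrez 60599, chromosome 4, 11156441 to 11174379, plus strand). Cisplatin libraries had 142.6, 144.1 and 157.8 CPM and control libraries 20.9, 18.8 and 25.0 CPM. The control libraries varied more than for most of the 10 genes, with a coefficient of variation of 14.7% against a median of 6.35%, and still lay far below every cisplatin library. The log2 fold change was 2.78 (SE 0.11), or 6.87-fold.

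Of the genes that act on nucleic acids, Zmat3 encodes a zinc finger protein that binds AU-rich and intronic RNA and alters stability and splicing (Entrez 22401, chromosome 3, 32334792 to 32365665, minus strand). It had 72.9, 86.0 and 77.4 CPM in cisplatin and 19.3, 20.1 and 21.3 CPM in control libraries. The log2 fold change was 1.96 (SE 0.09). Aen, an exonuclease of the ISG20 family that digests DNA and RNA in dying cells (Entrez 68048, chromosome 7, 78895927 to 78911209, plus strand), had 137.8, 139.5 and 124.8 CPM in cisplatin and 29.4, 27.6 and 26.3 CPM in control libraries. Its log2 fold change was 2.27 (SE 0.08). Both genes were several times higher in each cisplatin library than in any control.

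In metabolism the values were small and went in both directions. Tigar encodes a phosphatase that removes fructose 2,6-bisphosphate and so slows glycolysis in favour of the pentose phosphate pathway (Entrez 319801, chromosome 6, 127085116 to 127109552, minus strand). It had 11.7, 11.7 and 11.1 CPM in cisplatin and 8.24, 8.27 and 9.44 CPM in control libraries, so the groups came close without overlapping. The log2 fold change was 0.41 (SE 0.11), and the gene was no longer called when cisplatin replicate 1, control replicate 1 or control replicate 2 was left out, at 0.39, 0.38 and 0.38.

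Rrm2b encodes p53R2, a small subunit of ribonucleotide reductase that supplies deoxynucleotides to repair and to mitochondria of resting cells (Entrez 382985, chromosome 15, 37923952 to 37961119, minus strand). It had 24.6, 23.8 and 21.8 CPM in cisplatin against 31.7, 30.0 and 31.1 CPM in control libraries, a log2 fold change of -0.40 (SE 0.08). On the authors' TPM the groups overlapped, with 10.4, 10.3 and 8.46 TPM in cisplatin and 11.04, 10.1 and 11.1 TPM in control libraries. The gene was not called on FPKM, where its log2 fold change was -0.23 with a pseudocount of 1 and -0.26 with 0.1, and it stayed negative with scaling to library size. Scaling to library size shifted the median log2 fold change over all genes tested by 0.14, and changes under it are relative to that shift.

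Ephx1, the gene of detoxification, encodes microsomal epoxide hydrolase, which turns reactive epoxides into diols (Entrez 13849, chromosome 1, 180989556 to 181017569, minus strand). It had 570.9, 643.7 and 599.9 CPM in cisplatin against 74.8, 80.5 and 82.0 CPM in control libraries. The log2 fold change was 2.93 (SE 0.10), or 7.65-fold. Per length, Ephx1 ranked between 215 and 247 of 19087 genes by TPM in cisplatin libraries and between 1840 and 2005 in control libraries, the highest place of the 10 genes in cisplatin.

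Of the membrane proteins, Perp is a tetraspan protein of desmosomes that can also promote cell death (Entrez 64058, chromosome 10, 18845071 to 18857073, plus strand), and Ei24 is an endoplasmic reticulum protein needed for autophagy (Entrez 13663, chromosome 9, 36779153 to 36797334, minus strand). Perp had 192.7, 195.4 and 178.8 CPM in cisplatin and 82.6, 88.5 and 76.1 CPM in control libraries. Ei24 had 234.2, 238.4 and 258.4 CPM in cisplatin and 142.3, 149.0 and 144.0 CPM in control libraries. Both were already abundant in controls and both changed by less than the other risers apart from Tigar, with log2 fold changes of 1.20 (SE 0.08) for Perp and 0.75 (SE 0.08) for Ei24. In the annotation Ei24, Zmat3 and Rrm2b overlap Gm26787, 4930429B21Rik and Gm3362, none of which is in the table, and whether counting used strand is not given in the sources used here.

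By level per length (TPM), the order of the genes differed between groups. In cisplatin kidneys Ephx1 averaged 660.1 TPM, followed by Ei24 at 210.7, Perp at 188.3, Phlda3 at 178.7, Aen at 51.0, Trp53inp1 at 50.8, Zmat3 at 18.7, Inka2 at 13.8, Rrm2b at 9.73 and Tigar at 5.95 TPM. In control kidneys Ei24 led at 105.8 TPM, followed by Ephx1 at 72.5, Perp at 68.8, Rrm2b at 10.7, Aen at 8.89, Phlda3 at 6.43, Trp53inp1 at 6.26, Zmat3 at 4.05, Tigar at 3.75 and Inka2 at 0.42 TPM. Neighbours whose libraries overlapped were Perp with Phlda3 and Aen with Trp53inp1 in cisplatin, and Ephx1 with Perp, Phlda3 with Trp53inp1 and Zmat3 with Tigar in controls. Together the 10 genes held 1276 to 1510 TPM in cisplatin libraries and 284.6 to 292.9 TPM in control libraries. Replicates were close for these genes, with a median coefficient of variation of CPM of 5.83% in cisplatin and 6.35% in control libraries. Over all genes tested the medians were 9.73% and 8.03%, without matching for expression level.

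The cisplatin libraries differed from each other far less in the 10 genes than in injury markers. Havcr1, which encodes kidney injury molecule 1, had 1060, 1449 and 420.1 CPM in cisplatin replicates 1 to 3 and 2.63, 2.14 and 3.23 CPM in control replicates. Cisplatin replicate 3 lay below the mean of replicates 1 and 2 by a log2 difference of -1.56 for Havcr1 and by a median of -0.97 over the 5 injured tubule markers. For the 10 genes that difference ran from -0.27 for Phlda3 to 0.14 for Trp53inp1, with a median of -0.06, against a median of -0.00454 over all genes tested. Replicate 3 was the lowest cisplatin library for 5 of the 10 genes, as it was for 39.5% of all genes tested. Other p53 targets were mixed in this. In cisplatin replicates 1 to 3 Gdf15 had 210.6, 244.8 and 135.3 CPM and Eda2r 27.86, 36.07 and 22.22 CPM. Ccng1 was highest in replicate 3, with 881.5, 935.7 and 1066 CPM. Bbc3 had 25.69, 22.9 and 24.81 CPM, Sesn2 81.15, 76.35 and 76.97 CPM and Pcna 45.22, 43.06 and 42.12 CPM. These examples were picked after their values were seen. A small spread was therefore neither particular to the 10 genes nor shared by all p53 targets.

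**Figure D2:**
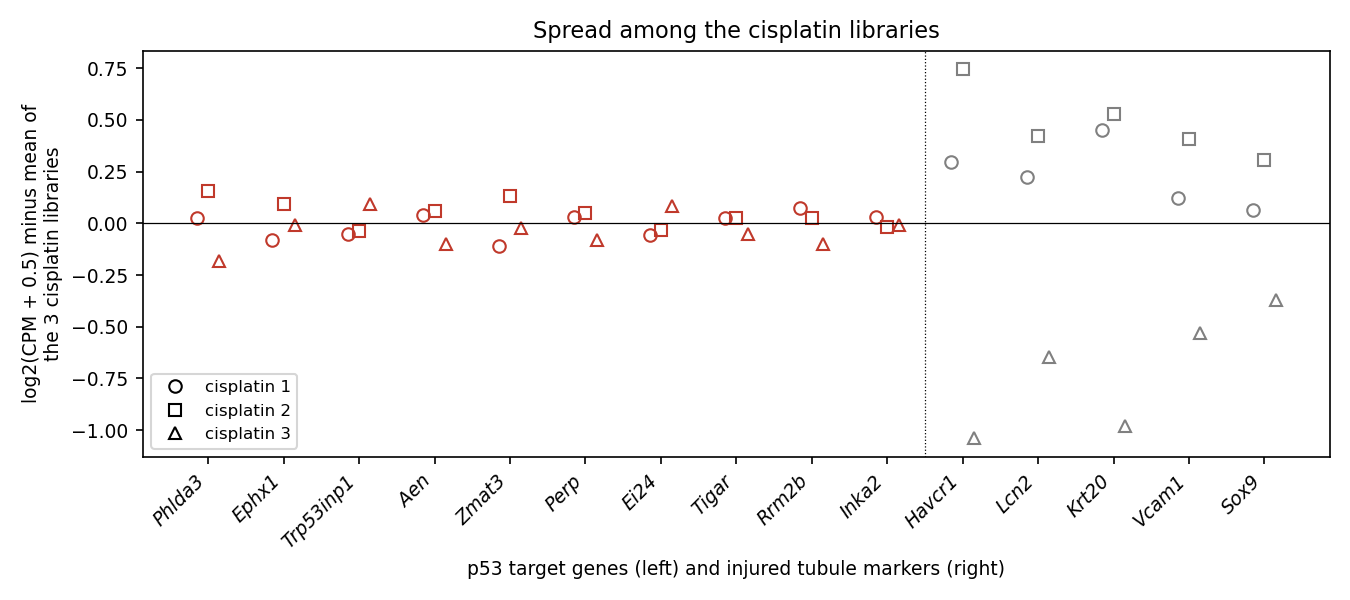
log2(CPM + 0.5) of each cisplatin library minus the mean of the 3 cisplatin libraries, for the 10 p53 target genes (red) and 5 injured tubule markers (grey). These 10 p53 targets stay near 0, within -0.181 and 0.157, while cisplatin replicate 3 sits at -1.04 for Havcr1 and -0.98 for Krt20.

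The tissue itself differed between groups. The summed level of 6 proximal tubule markers was 2499 to 5378 CPM in cisplatin and 11980 to 12570 CPM in control libraries, with 5 of 6 lower, and that of 5 injured tubule markers 841.4 to 2422 against at most 29.8 CPM, with 5 of 5 higher. All 4 thick limb and distal tubule markers were lower (1617 to 3129 against 5893 to 7121 CPM), as were all 4 endothelial markers (187.8 to 225.0 against 323.5 to 333.3 CPM), 3 of 4 collecting duct markers (264.3 to 345.1 against 401.1 to 423.5 CPM) and all 4 globins of red blood cells (0.303 to 0.508 against 55.5 to 709.9 CPM). Podocyte markers were higher in 3 of 4 (300.1 to 365.9 against 235.4 to 269.5 CPM) and fibroblast and pericyte markers in 2 of 4 (266.3 to 383.7 against 222.3 to 257.9 CPM). Macrophage markers were higher in 2 of 4 and lower in 1 (165.3 to 190.8 against 123.0 to 138.6 CPM), and neutrophil markers higher in 2 of 3 tested (2.88 to 3.67 against 0.549 to 2.57 CPM). The macrophage markers went both ways, with mean CPM in cisplatin against control of 77.96 and 9.47 for Cd68 and 49.84 and 36.35 for C1qa. Csf1r was at 46.82 against 80.41 CPM and Adgre1, not called, at 4.67 against 6.21 CPM. Of 2 T cell and 2 B cell markers tested 1 each was lower (2.02 to 3.38 against 4.53 to 8.32 CPM, and 0.908 to 1.52 against 2.11 to 4.09 CPM). Beside these counts, 23.1% of all genes tested were called higher and 22.2% lower. No listed marker found in the table was at 0 in all libraries. In whole tissue, fewer cells of a type and less RNA per cell cannot be told apart, and the part of this shift in the values of the 10 genes was not tested.

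Trp53, which encodes p53 itself, was higher in cisplatin by less than most of the 10 genes. It had 72.4, 81.0 and 61.6 CPM in cisplatin and 39.2, 44.0 and 41.7 CPM in control libraries (log2 fold change 0.78, SE 0.11; edgeR adjusted p = 0.00069). Of 19 tested genes for p53 and its regulators, 4 rose, 3 fell and 12 were not called (median log2 fold change -0.11), no larger a share than the 23.1% and 22.2% of all genes tested. Besides Trp53, Ppp1r13l, which encodes the p53 inhibitor iASPP, rose by 1.63 (SE 0.14; edgeR adjusted p = 7.07e-05), and the kinase gene Chek2 and the acetyltransferase gene Ep300 rose by 0.43 and 0.30. The DNA damage kinase genes Prkdc and Atm changed by -0.53 and -0.42 and the ligase gene Cop1 by -0.32. Without cisplatin replicate 1 or 2, or control replicate 1 or 2, 2 regulators were called higher instead of 4.

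Other p53 targets of metabolism and signalling, listed by name like the 10 genes, rose in 8 and fell in 3 of 14 tested members (median log2 fold change 0.73). Of all genes tested 23.1% rose and 22.2% fell, so the falls are close to that share. Eda2r, a receptor of the TNF receptor family, rose by 5.68 (SE 0.30; edgeR adjusted p = 9.92e-06), with 28.7 ± 6.97 CPM in cisplatin and 0.554 ± 0.225 CPM in control libraries (SD, n = 3 each). Gdf15, a stress hormone gene, rose by 4.48 and the carnitine palmitoyltransferase gene Cpt1c by 3.44. The falls were those of Tnfaip8, which encodes a cytosolic regulator of cell death (-1.33), and of Fdxr and Aldh4a1, which encode mitochondrial enzymes (-0.68 and -0.67).

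Targets of arrest and feedback rose in 12 of 14 members (median log2 fold change 2.89), while the stress genes Gadd45a (0.87) and Sesn1 (-0.21) were not called. Gadd45a had 60.21, 62.06 and 49.73 CPM in cisplatin and 49.56, 19.41 and 25.15 CPM in control libraries. The number called higher was 13 with scaling to library size, DESeq2, on FPKM, without control replicate 1 and with the replicate block. Cdkn1a, the gene of the cyclin-dependent kinase inhibitor p21, had 755.2, 888.4 and 670.0 CPM in cisplatin and 6.96, 10.04 and 10.1 CPM in control libraries (log2 fold change 6.41, SE 0.20; edgeR adjusted p = 5.69e-07). Mdm2, whose product degrades p53, rose by 2.12 (SE 0.13; edgeR adjusted p = 1.6e-05), and the mitotic genes Psrc1 and Gtse1 by 5.77 and 4.44. Targets of cell death rose in 8 of 9 members (median 1.58), with Bid at -0.33 and not called, led by Bbc3 (2.80), Pmaip1 (2.77) and Tnfrsf10b (2.18), which encode PUMA, NOXA and a death receptor. Targets of DNA repair rose in 3 of 6 members, the polymerase gene Polk (1.65), the excision nuclease gene Ercc5 (1.21) and the sliding clamp gene Pcna (0.30). The damage sensor gene Xpc changed by -0.25, a call lost without cisplatin replicate 1, control replicate 1 or control replicate 2, and that of Pcna was lost without cisplatin replicate 1 or control replicate 3. Without cisplatin replicate 3, 1 gene of cell death was called lower. Among all genes tested 23.1% were called higher and 22.2% lower, and the lists were compiled with earlier results of these data known.

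**Figure D3:**
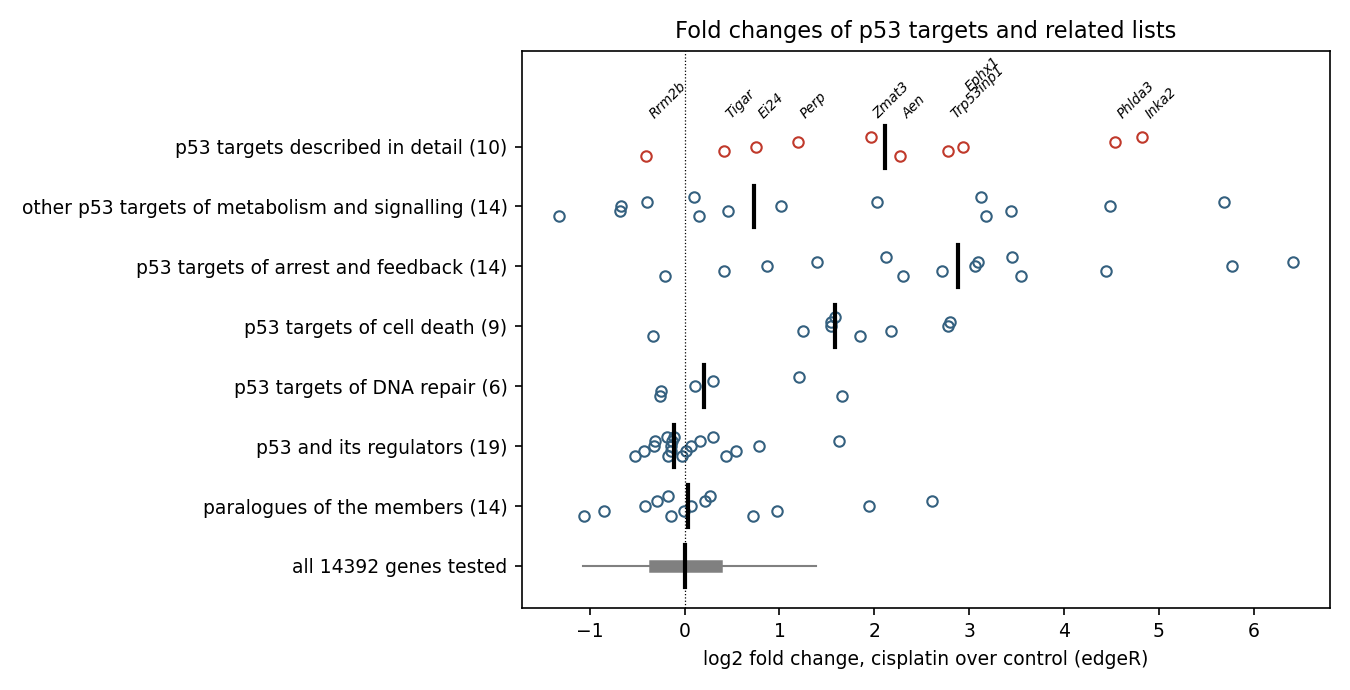
log2 fold change (edgeR, cisplatin over control) of the 10 p53 target genes (red, named), of 6 lists of related genes (blue, number tested in brackets) and, in grey, of all 14392 genes tested from the 5th to the 95th percentile, with the 25th to 75th percentile as a thick bar. Black marks are medians, at 2.12 for the 10 genes, 2.89 for arrest and feedback and 0.03 for the paralogues of the 10 genes.

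Of 14 tested paralogues of these genes 3 rose, 3 fell and 8 were not called (median log2 fold change 0.03), shares close to the 23.1% and 22.2% of all genes tested. The risers were Isg20, an exonuclease gene related to Aen (2.61, SE 0.29; edgeR adjusted p = 0.000382), Phlda1 (1.94, SE 0.35; edgeR adjusted p = 0.00499) and Rrm2, the S-phase counterpart of Rrm2b (0.98, SE 0.23; edgeR adjusted p = 0.00888). Inka1 fell by 1.06 on the log2 scale (edgeR adjusted p = 0.00709), Ephx2, which encodes soluble epoxide hydrolase, fell by 0.85 (edgeR adjusted p = 0.00567) and Zmat5 fell by 0.42 (edgeR adjusted p = 0.0125), a call that was lost without cisplatin replicate 1 (-0.39; edgeR adjusted p = 0.0536), which left 2 paralogues lower. The paralogues that were not called had log2 fold changes of 0.72 for Ephx3, 0.27 for Phlda2, 0.22 for Isg20l2, 0.06 for Zmat2, -0.002 for Tmem47, -0.15 for Trp53inp2, -0.18 for Zmat4 and -0.29 for Zmat1. Differences between a gene's fold change and that of its paralogue were not tested. With scaling to library size 5 paralogues were called higher and on FPKM 6.

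These opposite or unequal changes altered the makeup of gene pairs within each library. Ephx1 made up 72.6%, 77.7% and 66.3% of the summed TPM of Ephx1 and Ephx2 in cisplatin libraries, against 15.3%, 15.1% and 16.8% in control libraries. Inka2 made up 84.9%, 88.1% and 86.4% of the TPM of Inka2 and Inka1 in cisplatin, against 9.19%, 10.6% and 10.3% in controls. In both pairs the more abundant partner differed between cisplatin and control kidneys in all 6 libraries.

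The PHLDA family and the Trp53inp pair differed in the same direction. Phlda3 held 76.3%, 80.8% and 72.7% of its sum with Phlda2 in cisplatin, against at most 17.2% in controls, and 82.2%, 83.1% and 90.2% of its sum with Phlda1 in cisplatin, against 53.2%, 42.4% and 48.4% in controls. Trp53inp1 held 33.5%, 34.7% and 36.0% of its sum with Trp53inp2 in cisplatin, against 6.45%, 5.78% and 7.39% in controls, so Trp53inp2 stayed the more abundant of the pair in every library. These shares use the fold changes by which the genes were chosen and are given without a test.

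For ribonucleotide reductase the shift was the other way. Rrm2b held 54.4%, 42.0% and 51.8% of the summed TPM of the small subunits Rrm2b and Rrm2 in cisplatin libraries, against 70.5%, 74.6% and 68.5% in control libraries. Relative to Rrm1, the large subunit gene, its share of the pair's TPM was 56.6%, 54.3% and 59.8% in cisplatin and 68.6%, 65.6% and 68.1% in controls. Rrm1 had 16.8, 17.9 and 12.97 CPM in cisplatin and 12.8, 13.96 and 12.9 CPM in controls and was not called (log2 fold change 0.27, SE 0.13; edgeR adjusted p = 0.131). Among 9 genes of deoxynucleotide supply, the deaminase gene Dctd (2.08; edgeR adjusted p = 0.00115) and Rrm2 rose, the mitochondrial kinase genes Tk2 (-0.33) and Dguok (-0.32) fell, and 5 were not called, shares close to the 23.1% and 22.2% of all genes tested. With scaling to library size or on FPKM none of the 9 was called lower, and without cisplatin replicate 3 there were 4 higher and 3 lower. Without cisplatin replicate 1 or 2, or control replicate 2 or 3, 1 was lower, and Tk2 was not called in any of those 4 fits (-0.32, -0.27, -0.26 and -0.32).

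**Figure D4:**
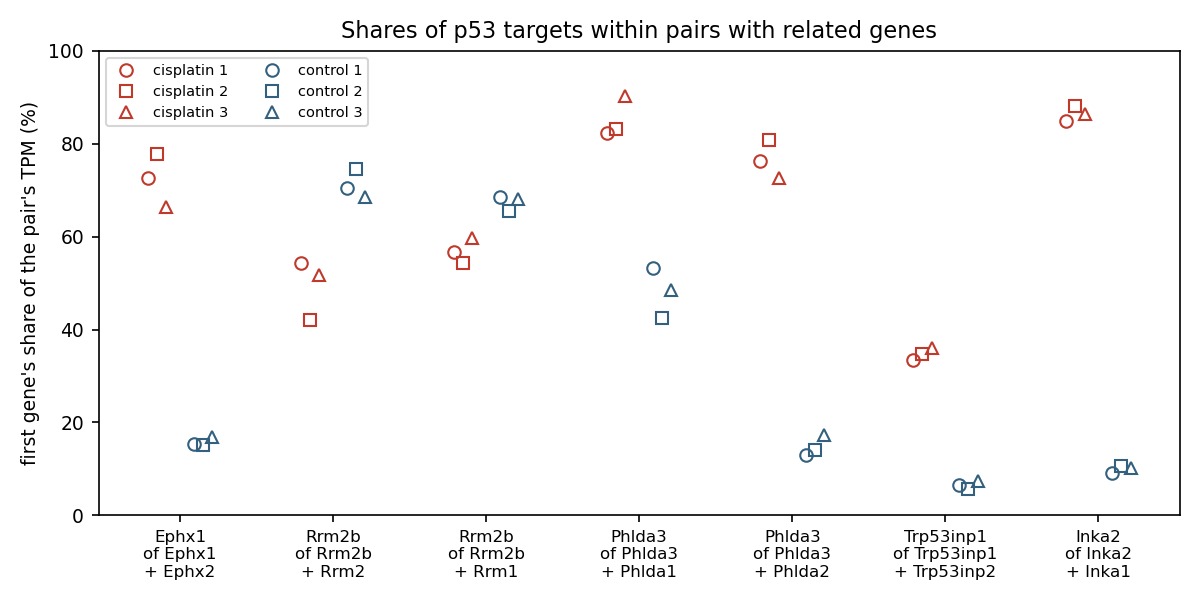
Share of each p53 target in the summed TPM of a pair with a related gene (percent), per library, cisplatin left of control. Ephx1 holds 66.3% to 77.7% in cisplatin and 15.1% to 16.8% in control libraries, while Rrm2b holds 42.0% to 54.4% with Rrm2 in cisplatin and 68.5% to 74.6% in control libraries.

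Around Tigar, genes of the pentose phosphate pathway and of fructose 2,6-bisphosphate turnover rose in 6 of 12 members and fell in 1 (median log2 fold change 0.43), where 23.1% of all genes tested rose and 22.2% fell. Without control replicate 1, 4 of the 12 were called higher. The oxidative pentose phosphate dehydrogenase genes G6pdx and Pgd rose by 1.09 (SE 0.07; edgeR adjusted p = 1.33e-05) and 1.05 (SE 0.10; edgeR adjusted p = 0.000113). G6pdx had 110.4, 118.2 and 112.6 CPM in cisplatin and 52.9, 53.3 and 54.4 CPM in control libraries. Fbp1, a gluconeogenic phosphatase gene, fell by 1.004 on the log2 scale (edgeR adjusted p = 0.000302).

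Around Ephx1, genes that form or clear epoxides were listed together with the quinone reductase gene Nqo1. Of these 9 genes 3 rose and 3 fell, where 23.1% of all genes tested rose and 22.2% fell. Nqo1 rose by 1.43 (edgeR adjusted p = 6.84e-05), the cytochrome P450 gene Cyp1b1 by 1.22 and the glutathione transferase gene Gstp1 by 0.54. The P450 genes Cyp2e1 and Cyp2j5 changed by -2.62 and -1.13, beside Ephx2. Cyp2e1 had 138.4, 91.0 and 567.9 CPM in cisplatin and 1522, 1733 and 1649 CPM in control libraries, and it was not called when cisplatin replicate 1 was left out (-2.31; edgeR adjusted p = 0.0621), when cisplatin replicate 2 was (-2.21; edgeR adjusted p = 0.0795) or with no filter on low counts (edgeR adjusted p = 0.0685). Without cisplatin replicate 3 its log2 fold change was -3.84. Cisplatin replicate 3, which had the least Havcr1 of the cisplatin libraries, had the most Cyp2e1 of them.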

How the data were processed

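Kidney RNA-seq of 3 cisplatin and 3 control samples was used. The submitters' processing notes name HISAT and the build GRCm38.p6, while annotation, counting program and strandedness were not stated there. The authors deposited estimated counts, FPKM and TPM per gene and library, per the file headers, in 1 table. The estimated counts deposited by the authors are not normalized, and 66.2% to 67.7% of values per library were whole. The deposited FPKM are scaled to library size and transcript length, and the deposited TPM are relative to the total of each library and entered no test. The control columns, abbreviated with a numeral, were taken as the wild-type controls of the same number.

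Estimated counts were rounded, filtered with filterByExpr (minimum count 10), TMM-normalised and tested by quasi-likelihood with edgeR 4.0.16 in R 4.3.3 (robust, two-sided, Benjamini-Hochberg over 14392 genes, threshold 0.05). CPM are TMM-normalised, and SE is the log2 fold change divided by the square root of F. With 3 against 3 samples an exact two-sided permutation test cannot go below p = 0.1, so none is given. Alternatives were other scalings, no filter, DESeq2 1.42.0, limma 3.58.1 on log2(FPKM + 1) and log2(FPKM + 0.1), each library left out and a replicate block. The procedure was also run on simulated counts that used the dispersions estimated from these data, and nothing is read from that run. The genes and lists were chosen with earlier results of these data known. Named were the 10 genes, Trp53, Cdkn1a, Mdm2, Havcr1, Rrm1, all tested paralogues and, of each other list, the 3 called genes that changed most, with a mean of 1 CPM or more in either group. Where 5 or fewer genes were called in a direction, the others were named after their values were seen. Pak5 and Trbc2 were not found by symbol. No pair of libraries in a group agreed within sampling noise (chi-square per degree of freedom 8.56 to 53.2). The values of 1 gene of the AKT pathway list are not reported here.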

Additional observations from a re-analysis of the deposited data

How the results depend on the processing

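Over all genes, 3326 were called higher and 3201 lower, 51.0% of calls higher. The split was 67.0% with scaling to library size (4632 and 2281) and 66.2% with limma on log2(FPKM + 1) (4457 and 2278). Leaving out 1 library gave 2486 to 3614 higher and 2281 to 3591 lower. Of the 10 genes, 8 to 9 were called higher over the left-out libraries and 1 lower in each, while on FPKM none was called lower (0 with either pseudocount). Their median log2 fold change was 2.25 with scaling to library size, 1.97 on log2(FPKM + 1), 2.21 on log2(FPKM + 0.1) and 2.07 to 2.14 over the left-out libraries. No direction of the 10 genes changed in any alternative.

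Deviations of same-numbered samples from their group means correlated at r = 0.0307, -0.135 and -0.129. Samples of different numbers gave r from -0.0154 to 0.151. With so few samples per group these values cannot decide whether samples were paired. The replicate block gave 2822 higher and 2739 lower genes, 2 p53 regulators higher, 1 deoxynucleotide gene lower, 1 autophagy gene higher and 2 lower, and 4 desmosome genes higher.

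With scaling to library size and on FPKM the number called lower was 0 for DNA repair and deoxynucleotide genes, 2 and 1 for AKT genes and 1 for autophagy genes, and 1 regulator was lower on FPKM. Called higher were 5 and 6 paralogues, 4 AKT genes, 5 genes of the epoxide list, and 5 and 6 autophagy genes. Over the left-out libraries calls higher ranged from 2 to 4 for regulators and for deoxynucleotide genes, and from 1 to 2 for PAK and autophagy genes. Calls lower ranged from 0 to 1 for cell death and DNA repair genes, 1 to 3 for deoxynucleotide genes, 2 to 3 for AKT genes and 1 to 6 for autophagy genes.

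Sign changes occurred only in genes that were not called: Tmem47 was at 0.137, 0.079 and 0.15 with scaling to library size and on FPKM, 0.019 with the block and -0.201 to 0.135 over the left-out libraries, Zmat2 at -0.007 to 0.143 and Zmat4 at -0.6 to 0.098 over the left-out libraries. The cause was not tested. Inka2 rests on 17.4 to 23.0 estimated counts in controls, which limits its precision there.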

Other observations

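Of 7 tested desmosome genes, the structures that hold Perp, 6 rose and 1 fell (median log2 fold change 0.54), where 23.1% of all genes tested rose and 22.2% fell. The number higher was 4 without control replicate 1, 5 without any 1 of the other libraries and 5 with DESeq2. The plakophilin gene Pkp2 rose by 1.01 (SE 0.08; edgeR adjusted p = 4.54e-05) and the desmoplakin gene Dsp by 0.69, while Pkp4 fell by 0.70 (edgeR adjusted p = 0.000873). Of 4 tested genes of p21-activated kinases, Pak1 and Pak2 rose by 0.31 and 0.33, where 23.1% of all genes tested rose. Pak4, the kinase that INKA2 inhibits, had 50.03 ± 1.62 CPM in cisplatin and 45.3 ± 5.24 CPM in control libraries (SD, n = 3 each) and was not called. Pak6 changed by -0.04 and was not called. The Pak2 call was lost without cisplatin replicate 1 or control replicate 2.

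Of 11 AKT pathway genes, Pik3r1 (0.40) and Pdpk1 (0.33) rose, 4 fell, among them Inpp4b (-0.71), Phlpp1 (-0.50) and Pik3ca (-0.32), and 5 were not called. Over all genes tested 23.1% were called higher and 22.2% lower, against 2 and 4 of these 11 genes and 2 and 4 of 14 core autophagy genes. Of the autophagy genes, Vmp1 rose by 1.26 (SE 0.08; edgeR adjusted p = 1.72e-05) and Sqstm1 by 0.30, Gabarapl1 fell by 1.24 (edgeR adjusted p = 0.000269), and Map1lc3a (-0.34), Map1lc3b (-0.28) and Ambra1 (-0.27) were called lower. Inpp4b was not called with scaling to library size, on FPKM, or without control replicate 1 or 3. In the fits without either of those controls 2 AKT genes were lower. Map1lc3a was called in the fit without cisplatin replicate 3 and in no other fit that left out a library. Autophagy genes called lower numbered 6 without cisplatin replicate 3, 2 without cisplatin replicate 2 or control replicate 2, and 1 without cisplatin replicate 1 or control replicate 1 or 3. Vmp1 was the 1 autophagy gene called higher without cisplatin replicate 1 or any 1 control.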
